A study of Mus musculus with 6 samples.

Results

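Collagen chain genes encode the polypeptides that wind around each other into collagen triple helices. Their transcripts were read on Illumina mouse bead arrays, chips on which beads carry probes for single transcripts, in RNA of the quadriceps femoris, a thigh muscle. The members were every probe whose platform gene symbol is Col, a number, the letter a and a number. This gave 84 probes of 39 genes, among 46632 probes and 17711 named genes in all. The genes were grouped as fibrillar (11 genes, 28 probes), basement membrane (8 genes, 14 probes) and other collagens (20 genes, 42 probes).

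Of the 6 arrays, 3 are labelled RORalpha1delDE and 3 wild type. RORalpha1delDE mice carry a truncated human RORalpha1, a nuclear receptor without the whole E region and without a stretch of region D, the hinge, under the human skeletal alpha-actin (HSA) promoter. That promoter drives expression in skeletal muscle, whereas most muscle collagen is made by other cells of the tissue. Both groups are labelled as C57BL/6, ate a standard diet with 4.6% fat, lived with 12 h of light a day, and were fasted overnight and killed at 9 in the morning. Age, sex and the number of founder lines are not stated in the labels. The arrays ask how muscle RNA of transgenic mice differs from that of wild-type mice.

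As background, fibrillar collagens of types I, III and V form the tensile fibres of the muscle's connective tissue sheaths and are made mainly by fibroblasts. Type IV chains form the network of the basement membrane around each muscle fibre and capillary, and types XV and XVIII sit at the border of that membrane. Type VI forms beaded microfilaments that tie the membrane to the matrix outside it, and mutations in its genes cause muscular dystrophies. Type VII makes anchoring fibrils, best known beneath the epidermis of the skin.

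All 6 arrays lay on 1 chip, with the wild-type samples at the first positions, so chip position and genotype cannot be told apart. Between 13979 and 14454 probes were detected on the RORalpha1delDE arrays and between 14271 and 14887 on the wild-type arrays. Between arrays 1 and 2 of a group, paired probes of 1 gene did not deviate together (r across 525 genes = 0.0316 in RORalpha1delDE and 0.0341 in wild type, against 0.703 to 0.765 for pairs that include array 3), and they were averaged and counted as 1 sample. Each group therefore has n = 2, and an exact permutation test of single values cannot give p below 0.333. Whether samples came from separate mice is not labelled, and the p-values cover the spread seen here, which may be technical. Of the defining muscle fibre genes 9 of 9 were kept, among them Acta1 and Ckm. RORalpha1delDE array 3 stood furthest apart in Tnni1, troponin I of slow fibres, which was not detected there. Tnni1 read 5.40 on that array, against 11.05 and 10.98 on the other RORalpha1delDE arrays and 10.70, 10.65 and 10.84 on the wild-type arrays. Myh2 and Myh1 also had their lowest values there, 13.86 and 10.87. Of the 9 genes, 7 were lower there than the mean of RORalpha1delDE arrays 1 and 2, beside 48.5% of all kept genes. The bearing of RORalpha1delDE array 3 on the collagen values was not tested. Values without this array are given for part of the collagens and, among the other genes, only for S100a4 and Gsn. All levels below are normalised log2 intensities, and all differences are RORalpha1delDE minus wild type on that scale.

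Of the 39 genes, 18 had a probe with a detection p below 0.05 on 3 or more arrays, and these probes were kept. They are 6 fibrillar, 5 basement membrane and 7 other collagens, read by 20 kept probes. Another 9 genes were detected on only 1 or 2 arrays, and 12 on none, including Col2a1 of cartilage, the type IX chains Col9a1, Col9a2 and Col9a3, Col17a1 of epithelial hemidesmosomes, and Col4a3 and Col4a6. Each gene is described by its brightest kept probe, and levels of different genes are not compared, since each probe has its own brightness.

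With limma over 14420 kept probes, 0 of 20 collagen probes passed an adjusted p of 0.05, against 0.00693% of all kept probes. At an unadjusted p under 0.05, 1 collagen probe was past the threshold, the higher one of Col7a1, against 7.64% of all kept probes, 3.49% higher and 4.15% lower. The collagen gene with the largest difference was Col7a1, 2.57-fold higher in RORalpha1delDE. Among the other 17 genes, differences ran from -0.17 to 0.72, and every 95% confidence interval included 0.

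The genomic windows shown first are those of Col7a1, which had the largest difference, and of Col4a1 and Col4a2, whose windows overlap. Levels of Col4a1 and Col4a2 had the same order across the samples. Other collagens had that order too, and its relation to the shared bases was not tested. The windows hold 250 bases before and 50 after the annotated start, from RefSeq on mouse assembly GRCm38.p6. In the Col7a1 window, chr9:108953336-108953635 on the plus strand, capitals mark matches to AGGTCA, the core of the element to which ROR receptors bind, to GGGCGG, a GC box, and to CCAAT, each on either strand. In the windows of Col4a1, chr8:11312777-11313076 on the minus strand, and Col4a2, chr8:11312555-11312854 on the plus strand, capitals mark the 78 bases that both windows hold, printed once on each strand.
Col7a1: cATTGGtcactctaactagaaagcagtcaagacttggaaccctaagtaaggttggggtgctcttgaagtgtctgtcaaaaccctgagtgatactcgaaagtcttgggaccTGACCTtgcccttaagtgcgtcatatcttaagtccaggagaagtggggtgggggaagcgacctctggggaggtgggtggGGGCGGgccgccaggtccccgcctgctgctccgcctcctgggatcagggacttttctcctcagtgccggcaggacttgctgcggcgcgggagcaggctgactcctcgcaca
Col4a1: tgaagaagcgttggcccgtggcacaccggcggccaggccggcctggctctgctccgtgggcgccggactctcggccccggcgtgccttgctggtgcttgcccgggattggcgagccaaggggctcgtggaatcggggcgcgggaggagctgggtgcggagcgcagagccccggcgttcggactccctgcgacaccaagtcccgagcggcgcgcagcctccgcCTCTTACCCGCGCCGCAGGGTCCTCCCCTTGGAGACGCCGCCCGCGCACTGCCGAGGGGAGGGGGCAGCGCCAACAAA
Col4a2: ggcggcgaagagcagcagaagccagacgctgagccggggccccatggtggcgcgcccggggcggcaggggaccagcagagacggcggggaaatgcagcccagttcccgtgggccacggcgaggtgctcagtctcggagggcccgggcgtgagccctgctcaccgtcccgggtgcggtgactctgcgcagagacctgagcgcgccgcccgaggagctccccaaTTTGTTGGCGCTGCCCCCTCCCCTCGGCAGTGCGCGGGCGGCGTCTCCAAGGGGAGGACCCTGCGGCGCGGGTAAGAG

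The annotated starts of Col4a1 and Col4a2, which are read in opposite directions, lie 21 bases apart. Windows were found for 16 of the 18 kept collagen genes. AGGTCA was present in the windows of Col7a1 and Col24a1, that is in 2 of 16 genes, while 16.3% of all 32851 windows hold it. In Col7a1 it begins at position -140 from the annotated start and reads TGACCT on the printed strand. GGGCGG was present for 11 of the 16 genes and in 35.7% of all windows, and CCAAT for 8 of the 16 and in 37.4%. The only GGGCGG match of Col4a1 lies in the bases shared with Col4a2, so that site was counted for both genes. Some genes have more than 1 window: by window, AGGTCA was in 2 of 18, GGGCGG in 12 and CCAAT in 8. The collagen windows had a median GC content of 59.8%, against 52.7% over all windows, and its part in the GGGCGG count was not tested. No motif overlapped another in the Col7a1 window. A match describes letters and not bound sites.

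Fibrillar collagens had a median difference of 0.29 over 6 genes, 5 above 0 and 1 below, beside a median of 0.04 over all 8397 kept genes. None passed the adjusted threshold. The median was -0.04 without wild-type array 3 and 0.12 without RORalpha1delDE array 3. Leaving out array 3 of a group leaves that group with 1 sample, assumed to vary like the other group, so values without it are descriptions.

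Col1a1, the main chain of type I collagen, read 9.01, 8.66 and 9.07 on the RORalpha1delDE arrays, against 9.37, 9.21 and 8.71 on the wild-type arrays. The groups overlapped, with wild-type arrays 1 and 2 above all RORalpha1delDE arrays and wild-type array 3 among them. The difference was -0.05 ± 0.25 (SE, n = 2 each, adjusted p = 0.971), with a 95% confidence interval from -0.66 to 0.56. It was -0.34 without wild-type array 3, and without RORalpha1delDE array 3 it was -0.17.

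Col1a2, the partner chain of Col1a1 in the same molecule, read 6.56, 6.21 and 6.44 on the RORalpha1delDE arrays, against 6.20, 6.44 and 5.06 on the wild-type arrays. Only wild-type array 3 stood apart, and there the probe was not detected. The difference of 0.72 ± 0.40 (adjusted p = 0.707) dropped to 0.09 without that array. Both intervals of the type I chains included 0, and the difference between the chains was not tested.

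Col3a1, the fibrillar chain of reticular fibres, read 7.06, 6.88 and 7.78 on the RORalpha1delDE arrays, against 7.18, 7.66 and 6.26 on the wild-type arrays. RORalpha1delDE array 3 was the highest and wild-type array 3 the lowest, and the groups overlapped. The difference was 0.53 ± 0.44 (adjusted p = 0.773), and it was -0.04 without wild-type array 3 and 0.13 without RORalpha1delDE array 3. A second Col3a1 probe, detected only on wild-type array 3, read 4.99, 5.23 and 5.08 on the RORalpha1delDE arrays, against 5.19, 5.19 and 6.40 on the wild-type arrays. The probes of this gene disagreed, since the kept probe was lowest on the array where the other was highest.

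Col5a1, a type V chain that starts fibril assembly, read 8.56, 8.94 and 8.97 on the RORalpha1delDE arrays, against 8.87, 8.92 and 8.37 on the wild-type arrays. Its partner Col5a2 read 6.35, 5.69 and 6.34 on the RORalpha1delDE arrays, against 6.32, 6.50 and 5.46 on the wild-type arrays, and was detected on 2 of 3 arrays in each group. In both genes wild-type array 3 was the lowest of all, and the differences were 0.23 ± 0.24 for Col5a1 and 0.24 ± 0.33 for Col5a2. They were -0.03 and -0.23 without wild-type array 3, and without RORalpha1delDE array 3 they were 0.11 and 0.08.

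Col24a1, a minor fibrillar chain known from developing bone, was read by 2 kept probes, and its other probes were detected on no array. The dimmer of the kept probes was detected on 2 of 3 wild-type arrays. The brighter probe gave 7.28, 6.93 and 6.56 on the RORalpha1delDE arrays, against 6.29, 6.69 and 6.52 on the wild-type arrays. The dimmer probe gave 6.67, 6.97 and 6.33 on the RORalpha1delDE arrays, against 6.36, 6.23 and 5.77 on the wild-type arrays. In both, the averaged samples did not overlap while single arrays did, with differences of 0.33 ± 0.23 and 0.54 ± 0.27 (adjusted p = 0.747 and 0.678). Without RORalpha1delDE array 3 the difference of the brighter probe was 0.60. Of the remaining fibrillar genes, Col11a1, Col11a2 and Col5a3 were detected on 1 array each, and Col2a1 and Col27a1 on none.

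**Figure D1:**
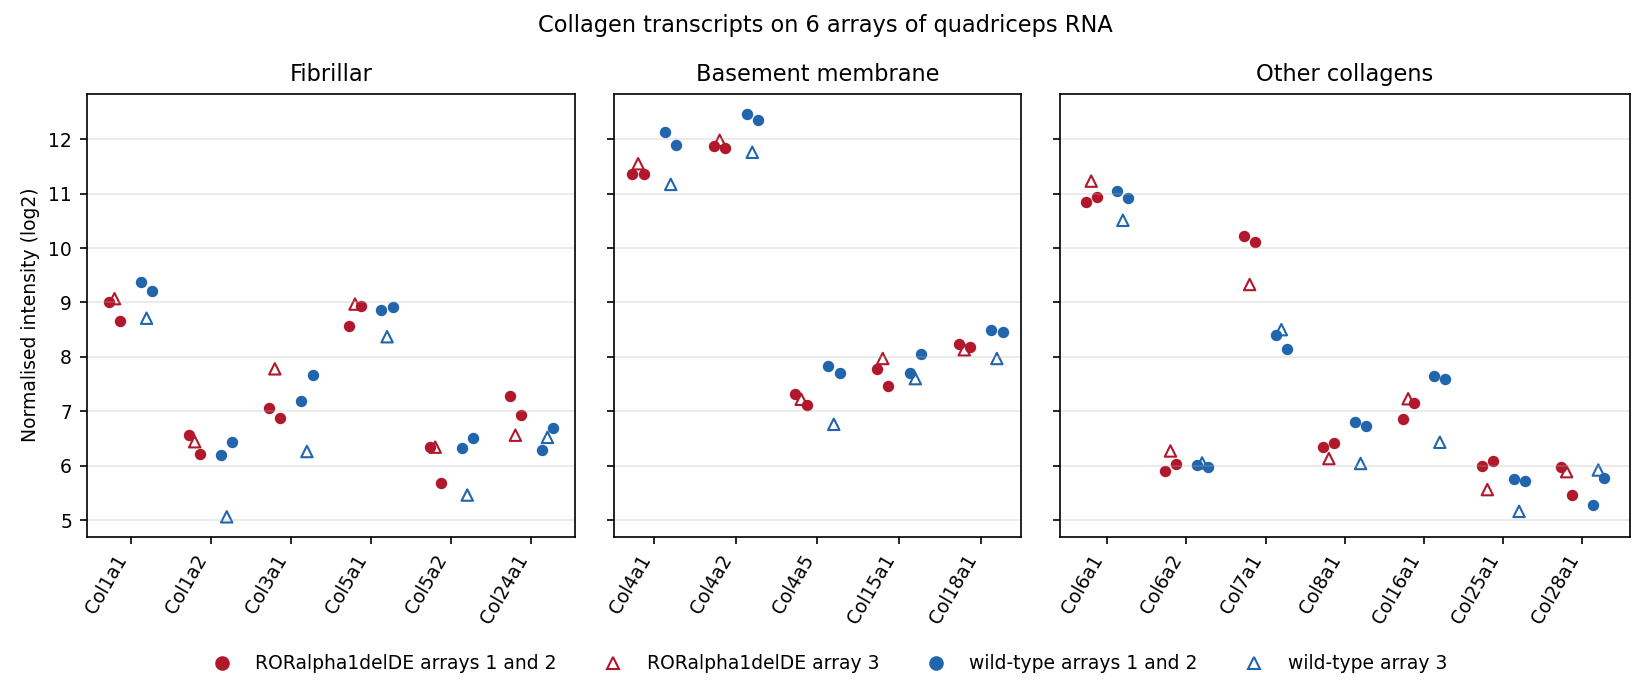
Normalised log2 intensity (vertical axis) of the brightest kept probe of each of 18 collagen genes (horizontal axis, by class). Each point is 1 array, with circles for arrays 1 and 2, which were counted as 1 sample, and open triangles for array 3. Col7a1 is the gene in which all 3 RORalpha1delDE arrays (9.33 to 10.22) lie above all 3 wild-type arrays (8.15 to 8.50), and in the basement membrane panel wild-type array 3 lies below the other wild-type arrays.

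Basement membrane collagens had a median difference of -0.05 over 5 genes, with 1 above 0 and 4 below. In all 5 the mean of the RORalpha1delDE samples lay between the 2 wild-type samples, which was so for 37.1% of all kept genes. It was also so for 4 of the 6 fibrillar collagens and for 12 of all 18 collagens.

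Col4a1 and Col4a2 make the type IV molecule found in nearly all basement membranes. Col4a1 read 11.37, 11.37 and 11.55 on the RORalpha1delDE arrays, against 12.14, 11.90 and 11.17 on the wild-type arrays. Col4a2 read 11.87, 11.84 and 11.98 on the RORalpha1delDE arrays, against 12.47, 12.36 and 11.76 on the wild-type arrays. The order of the samples was the same for both chains. Wild-type arrays 1 and 2 were highest, then RORalpha1delDE array 3, then RORalpha1delDE arrays 1 and 2, and wild-type array 3 was lowest. Col4a5, Col1a1, Col16a1 and Col5a2 had this order too.

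The differences were -0.13 ± 0.30 for Col4a1 and -0.17 ± 0.26 for Col4a2 (adjusted p = 0.93 and 0.885). The wild-type samples differed from each other more than the groups did: wild-type array 3 minus the mean of wild-type arrays 1 and 2 was -0.85 for Col4a1 and -0.66 for Col4a2. Without wild-type array 3 the differences were -0.56 for Col4a1 and -0.50 for Col4a2. Without RORalpha1delDE array 3 they were -0.22 and -0.23.

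Col4a5, the type IV chain mutated in Alport syndrome, read 7.31, 7.12 and 7.22 on the RORalpha1delDE arrays, against 7.84, 7.71 and 6.76 on the wild-type arrays. Its difference was -0.05 ± 0.34, and wild-type array 3 minus the other wild-type sample was -1.01. Without wild-type array 3 the difference was -0.56. A second Col4a5 probe was detected on no array. Of the remaining type IV chains, Col4a4 was detected on 1 array, and Col4a3 and Col4a6 on none.

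Col15a1 and Col18a1 encode basement membrane zone collagens, and Col18a1 is the source of the fragment endostatin. Col15a1 read 7.78, 7.46 and 7.97 on the RORalpha1delDE arrays, against 7.71, 8.06 and 7.60 on the wild-type arrays. Col18a1 read 8.24, 8.19 and 8.13 on the RORalpha1delDE arrays, against 8.50, 8.45 and 7.97 on the wild-type arrays. The groups overlapped in both genes, with differences of 0.05 ± 0.21 and -0.05 ± 0.23. These were -0.09 and -0.30 without wild-type array 3, and Col15a1 was at -0.12 without RORalpha1delDE array 3.

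The other collagens had a median difference of 0.11 over 7 genes, 6 above 0 and 1 below. Col7a1, the chain of anchoring fibrils, read 10.22, 10.11 and 9.33 on the RORalpha1delDE arrays, against 8.40, 8.15 and 8.50 on the wild-type arrays. The groups did not overlap, and RORalpha1delDE array 3 was the lowest of its group. The RORalpha1delDE samples averaged 9.75 ± 0.59 and the wild-type samples 8.39 ± 0.16 (SD, n = 2 each), a difference of 1.36 ± 0.30 (SE, adjusted p = 0.547, unadjusted p = 0.00391). The 95% confidence interval ran from 0.63 to 2.10.

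By unadjusted p, Col7a1 was at place 102 among the 14420 kept probes. At least 2-fold higher were 0.333% of them and at least 2-fold lower 0.957%. Of the collagen probes 1, that of Col7a1, was at least 2-fold higher and 0 were at least 2-fold lower. With the 6 arrays taken as separate samples its adjusted p was 0.0569, and over the other settings it ran from 0.13 to 0.712, so the threshold was not passed in any setting. The difference itself stayed between 1.06, with the deposited log2 values, and 1.78, without RORalpha1delDE array 3. The other Col7a1 probe was detected on no array, so the value rests on 1 probe.

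Col6a1, a chain of beaded microfilaments, was read by 2 kept probes that gave like differences, and a further probe was detected on no array. The brighter read 10.85, 10.94 and 11.23 on the RORalpha1delDE arrays, against 11.04, 10.92 and 10.51 on the wild-type arrays. The dimmer read 9.45, 9.40 and 9.93 on the RORalpha1delDE arrays, against 9.45, 9.58 and 9.20 on the wild-type arrays. In both, RORalpha1delDE array 3 was highest and wild-type array 3 lowest, and the differences were 0.31 ± 0.24 and 0.32 ± 0.24 (adjusted p = 0.76 for each). The difference of the brighter probe was 0.08 without wild-type array 3 and 0.14 without RORalpha1delDE array 3. Col6a2, which joins Col6a1 in the same molecule, read 5.91, 6.03 and 6.27 on the RORalpha1delDE arrays, against 6.01, 5.97 and 6.05 on the wild-type arrays, a difference of 0.11 ± 0.19, which was -0.04 without RORalpha1delDE array 3. Col6a6 was detected on 1 array and Col6a4 on none.

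Col25a1, a membrane-spanning collagen of neurons and developing muscle, read 6.00, 6.08 and 5.56 on the RORalpha1delDE arrays, against 5.75, 5.72 and 5.16 on the wild-type arrays. It was detected on 2 of 3 RORalpha1delDE arrays and 1 of 3 wild-type arrays, so its difference of 0.35 ± 0.27 lies near background. It was 0.06 without wild-type array 3 and 0.59 without RORalpha1delDE array 3. Col16a1, which binds to the surface of fibrils, read 6.85, 7.15 and 7.23 on the RORalpha1delDE arrays, against 7.64, 7.59 and 6.43 on the wild-type arrays. The RORalpha1delDE arrays lay between the wild-type arrays, the difference was 0.09 ± 0.39, and wild-type array 3 minus the other wild-type sample was -1.19. Without wild-type array 3 the difference was -0.50, and without RORalpha1delDE array 3 it was -0.03.

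Col8a1, a network collagen of vessel walls, read 6.35, 6.42 and 6.13 on the RORalpha1delDE arrays, against 6.81, 6.73 and 6.04 on the wild-type arrays, a difference of -0.15 ± 0.28. Wild-type array 3 was the lowest, and the difference was -0.51 without it and -0.02 without RORalpha1delDE array 3. Col28a1, a collagen of peripheral nerve, read 5.97, 5.46 and 5.89 on the RORalpha1delDE arrays, against 5.28, 5.77 and 5.92 on the wild-type arrays. It was detected on 2 of 3 RORalpha1delDE arrays and 1 of 3 wild-type arrays, and its difference was 0.08 ± 0.21, which was 0.28 without wild-type array 3 and -0.00 without RORalpha1delDE array 3. Col10a1, Col14a1, Col26a1 and Col8a2 were detected on 1 or 2 arrays, and Col13a1, Col17a1, Col19a1, Col23a1, Col9a1, Col9a2 and Col9a3 on none.

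Over the 20 kept probes, the averaged RORalpha1delDE samples lay above both wild-type samples for 4 probes, those of Col7a1, Col1a2 and Col24a1 (2 probes), and below both for 0. Of all kept probes, 21.6% lay above and 18.1% below. With 3 against 3 single arrays, 1 collagen probe lay above without overlap, that of Col7a1, against 12.1% of all kept probes, and 0 lay below, against 9.76%.

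**Figure D2:**
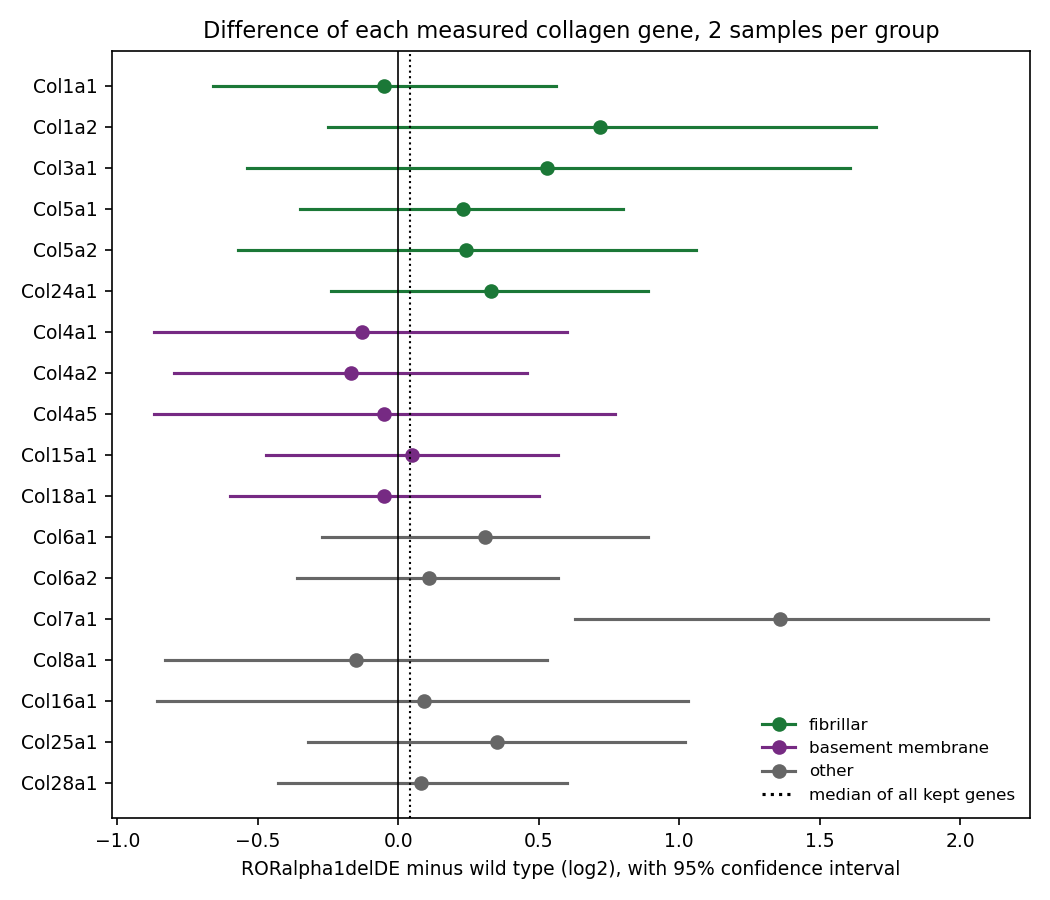
Difference in normalised log2 intensity, RORalpha1delDE minus wild type (horizontal axis), for 18 collagen genes (vertical axis), as points with 95% confidence intervals from limma with 2 samples per group. The dotted line marks the median of all kept genes, 0.04, and the interval of Col7a1 (0.63 to 2.10) is the one that does not include 0 before adjustment.

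Most collagens were lower on wild-type array 3 than on the other wild-type arrays. That array was below the mean of wild-type arrays 1 and 2 for 14 of 18 collagen genes, and it was the lowest of all 4 samples for 14 of 18, against 50.6% and 29.7% of all kept genes. The median of that within-group difference was -0.77 for fibrillar, -0.66 for basement membrane and -0.47 for other collagens, beside -0.01 over all kept genes. It was -1.26 for Col1a2, -1.19 for Col16a1, -1.15 for Col3a1 and -1.01 for Col4a5. The 4 genes that were not lower in wild-type array 3 were Col24a1, Col28a1, Col6a2 and Col7a1, at 0.03, 0.40, 0.06 and 0.22.

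Within the RORalpha1delDE group, array 3 was below the mean of arrays 1 and 2 for 5 of 18 collagen genes, with a median difference of 0.18, beside 48.5% and a median of 0.01 over all kept genes. The difference of array 3 from arrays 1 and 2 was 0.80 for Col3a1 and -0.84 for Col7a1.

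The split of signs depended on wild-type array 3. With all samples 12 of 18 collagen genes were above 0 and 6 below, and 14 of 20 collagen probes were above 0, beside 52.8% above and 47.2% below among all kept probes. Without wild-type array 3, 7 were above and 11 below, and the class medians were -0.04 for fibrillar, -0.50 for basement membrane and 0.08 for other collagens. Without RORalpha1delDE array 3, 8 were above and 10 below. Over all settings run, basement membrane medians stayed below 0, between -0.50 and -0.04.

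**Figure D3:**
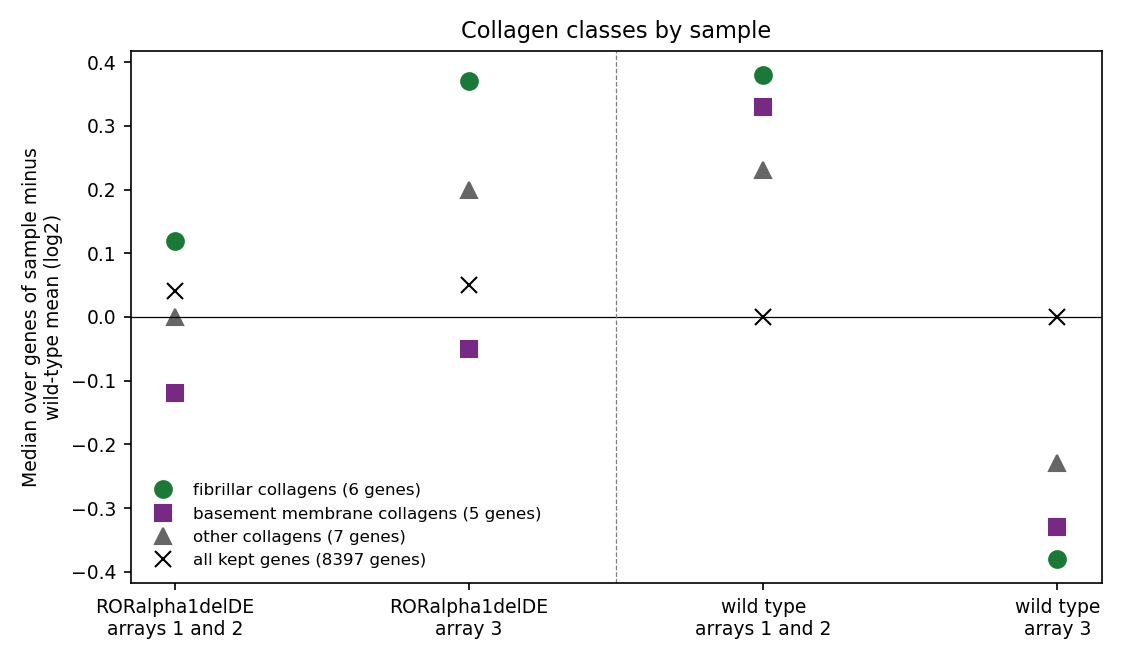
For each of the 4 samples (horizontal axis), the median over genes of the sample's log2 intensity minus the mean of the wild-type samples (vertical axis), by collagen class and for all kept genes. Since distances are taken from the wild-type mean, the wild-type samples mirror each other, at 0.38 and -0.38 for fibrillar collagens, while all kept genes stay between 0 and 0.05.

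Other genes of the collagen pathway were counted in lists. In these 7 lists, 0 members passed the adjusted threshold in either direction. Enzymes and chaperones that fold and modify collagen had a median difference of 0.22 over 20 kept members, 15 above 0 and 5 below. Serpinh1, the collagen chaperone Hsp47, read 10.42, 10.41 and 10.34 on the RORalpha1delDE arrays, against 9.94, 9.94 and 10.24 on the wild-type arrays, a difference of 0.28 ± 0.19 without overlap. Crtap, part of the prolyl 3-hydroxylation complex, had the smallest p of that list (difference 0.66 ± 0.26, adjusted p = 0.647). Colgalt1, which adds galactose to collagen hydroxylysine, differed by 0.39 ± 0.18, and Tmem38b, an ion channel of the endoplasmic reticulum, by 0.41 ± 0.19. For these 20 genes the median of wild-type array 3 minus the other wild-type sample was 0.05, beside -0.58 for the collagens. The difference between these medians was not tested.

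Genes of extracellular processing and cross-linking had a median of 0.06 over 8 kept members, 4 above 0 and 4 below. Pcolce, an enhancer of procollagen cleavage, differed by 0.51 ± 0.21 and Bmp1, the procollagen C-proteinase, by 0.33 ± 0.18. Lox, the cross-linking lysyl oxidase, read 9.56, 9.41 and 9.39 on the RORalpha1delDE arrays, against 10.52, 10.47 and 8.65 on the wild-type arrays. As in the type IV chains, the RORalpha1delDE arrays of Lox lay between the 2 wild-type samples.

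Genes of collagen breakdown and its inhibitors had a median of 0.23 over 11 kept members, 9 above 0 and 2 below. Timp1, an inhibitor of matrix metalloproteinases, differed by 0.46 ± 0.19, Mmp9 by 0.36 ± 0.17 and the gelatinase Mmp2 by 0.47 ± 0.25. Wild-type array 3 was the lowest of the 4 samples for 8 of the 11 members, beside 29.7% of all kept genes. The RORalpha1delDE mean of Mmp2 was 10.94, against 10.78 on wild-type arrays 1 and 2 alone, and for Timp1 and Mmp9 it was higher too. Collagen receptors had 4 kept members with a median of 0.34, of which 3 were above 0. Cspg4, the proteoglycan NG2, differed by 0.52 ± 0.28, the integrin chain Itgb1 by 0.29 ± 0.18 and Itga11, a collagen-binding integrin chain, by 0.40 ± 0.32. For Itga11 the RORalpha1delDE mean was 8.54, against 8.58 on wild-type arrays 1 and 2 alone, while for Cspg4 and Itgb1 it was higher. Single arrays of Cspg4 overlapped, at 6.81, 7.60 and 7.94 on the RORalpha1delDE arrays, against 7.17, 6.78 and 7.14 on the wild-type arrays. Among collagen-binding matrix proteins, 10 of 12 were above 0 with a median of 0.16, and Lum, the proteoglycan lumican, differed by 0.53 ± 0.29. All 12 were lowest in wild-type array 3.

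Basement membrane proteins other than collagens had a median of 0.02 over 10 kept members, 5 above and 5 below 0. Lama5 and Lamc1, laminin chains, differed by -0.40 ± 0.18 and -0.26 ± 0.21, and Hspg2, the proteoglycan perlecan, by -0.21 ± 0.20. Single arrays of Lama5 overlapped, at 7.06, 6.85 and 6.86 on the RORalpha1delDE arrays, against 7.70, 6.72 and 7.41 on the wild-type arrays. Genes of TGF-beta signalling, a pathway known to raise collagen transcription, had a median of 0.04 over 16 kept members, 10 above 0 and 6 below. Ltbp1, a latency protein of TGF-beta, differed by 0.68 ± 0.30, and its single arrays overlapped. Tgfbr2, a TGF-beta receptor, differed by -0.30 ± 0.18, without overlap.

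Markers of other cell types were measured beside the collagens, and their part in the collagen values was not tested. In bulk muscle, fewer cells of a type and less RNA per cell cannot be told apart. Of 9 fibroblast markers on the array 8 were kept and Tcf21 was detected on no array. All 8 had a difference above 0 (median 0.37), beside 4825 of all 8397 kept genes. In all 8 wild-type array 3 was the lowest of the 4 samples, beside 29.7% of all kept genes. Single arrays were lower for S100a4 and Fstl1. The median distance of wild-type array 3 from the other wild-type sample was -0.22. Against wild-type arrays 1 and 2 alone, the RORalpha1delDE mean was lower for Dcn, Pdgfra and Mfap5. It read 14.07 against 14.16, 10.16 against 10.20 and 8.54 against 8.74. For Fstl1, Dpt, Lum, S100a4 and Gsn it was higher. For S100a4 and Gsn this rested on RORalpha1delDE array 3. RORalpha1delDE arrays 1 and 2 averaged 6.53 and 6.93, against 6.60 and 6.96 on wild-type arrays 1 and 2. The summed linear intensity of the 8 markers ran from 17609 to 22944 on the RORalpha1delDE arrays and from 15249 to 22635 on the wild-type arrays. Fstl1, a secreted glycoprotein of fibroblasts, differed by 0.74 ± 0.21 (adjusted p = 0.612).

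Tendon and myotendinous junction markers had a median of 0.37 over 6 kept of 10, with Mkx, Thbs4 and Tnc detected on no array. Their summed intensity was 1477 to 2244 on the RORalpha1delDE arrays and 1136 to 1351 on the wild-type arrays. Ankrd1, a stress-responsive ankyrin repeat protein of muscle, was the 1 member whose groups did not overlap, at 8.95 to 10.07 on the RORalpha1delDE arrays, against 7.76 to 8.82 on the wild-type arrays. The other 5 overlapped, and the summed intensity without Ankrd1 was not taken. Macrophage markers had a median of 0.69 over 5 kept of 7, and Ptprc was detected on no array. Their summed intensity was 648 to 1376 on the RORalpha1delDE arrays and 559 to 702 on the wild-type arrays. RORalpha1delDE array 3 had the highest median in both lists.

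Of 8 endothelial markers all were kept, with a median of 0.01 and sums of 10554 to 11872 on the RORalpha1delDE arrays and 10111 to 12204 on the wild-type arrays. All 8 were lower in wild-type array 3 than in the other wild-type sample, with a median of -0.37. Schwann cell markers had a median of 0.20 over 4 kept of 6, smooth muscle and pericyte markers 0.12 over 6 of 7, and cartilage and bone markers 0.12 over 3 of 9. Of the satellite cell markers 1 of 6 was kept. Adipocyte markers, with 4 of 7 kept, had a median of -2.75 and sums of 1101 to 3472 on the RORalpha1delDE arrays, against 9896 to 15504 on the wild-type arrays, with Ucp1 (-7.34 ± 0.24) and Cidea (-4.04 ± 0.33) furthest apart. Adipoq overlapped, at 9.25, 9.21 and 11.05 on the RORalpha1delDE arrays, against 10.82, 10.67 and 11.79 on the wild-type arrays.

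**Figure D4:**
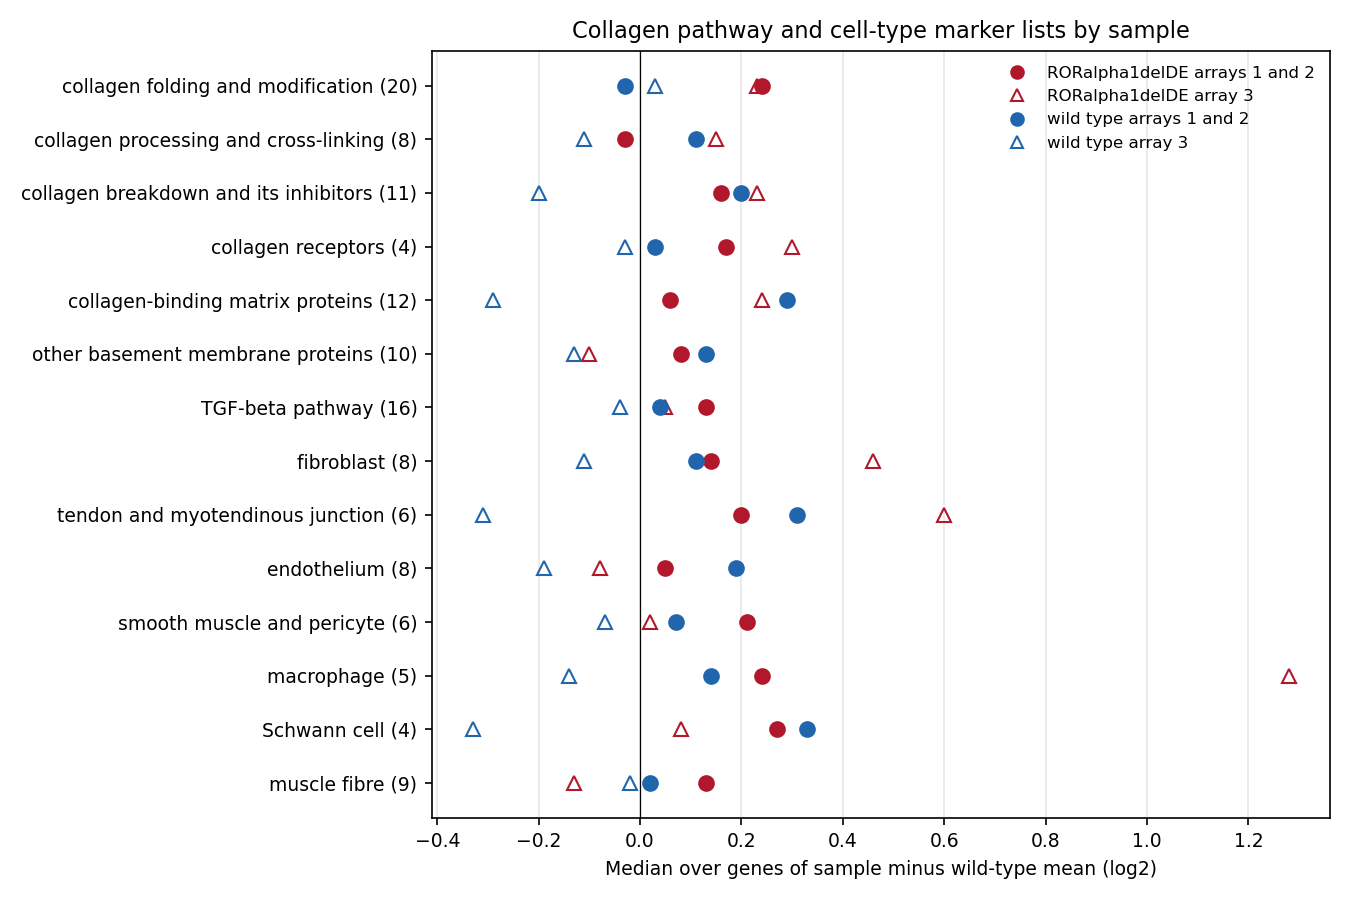
For each gene list (vertical axis, with the number of kept genes), the median over genes of each sample's log2 intensity minus the wild-type mean (horizontal axis). Filled circles are arrays 1 and 2 averaged and open triangles array 3. Lists with under 4 kept genes and the adipocyte list (median difference -2.75) are not drawn. Wild-type array 3 is the lowest sample for collagen-binding proteins (-0.29) and fibroblast markers (-0.11), and RORalpha1delDE array 3 is the highest for macrophage markers (1.28).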

How the data were processed

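The deposited signals are intensities on a linear scale, from BeadStudio 2.3.41 according to the submitters' processing notes, which leave the background setting unstated here. The deposited detection p-values rise with signal and were read as 1 minus p. The authors' second table holds log2 values centred on each probe's median, as found by setting it against the signals.

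In the deposited table the signal rows were displaced against the probe identifiers by 0 to 21 rows. Each signal row was given back to the probe whose array-to-array differences in the log2 table it equalled within 0.002, which placed 46611 of 46632 probes, all collagen probes among them. Detection values took no part in the matching, and their Spearman correlation with the signals across probes was 0.052 to 0.062 before and at least 0.9973 after it.

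Background was removed with limma 3.58.1 (R 4.3.3) by normexp, whose negative controls were inferred from detection values (offset 16). Quantile normalisation and log2 followed. Python 3.11.15 was used for the row matching. Probes detected on at least 3 arrays were kept (14420). Arrays 1 and 2 of a group were averaged because r between probes of the same gene was under 0.1. Groups were compared by lmFit and eBayes, two-sided, with Benjamini-Hochberg adjustment over kept probes. The fit was tested on simulated data whose noise was independent between probes, so shifts shared by many genes of an array were not covered. Symbols of the 39 collagen genes came from the platform annotation, and all 39 matched RefSeq by Entrez identifier. Every kept collagen is named. Of each pathway list up to 3 members with the smallest p are named, and Serpinh1, Lox and the single cell-type markers were chosen after their values were seen. The members, lists and the averaging were chosen with earlier results of these data known. Lists share Lum, Dcn, Fmod and Sparc. The number of arrays limits the precision.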

Additional observations from a re-analysis of the deposited data

How the results depend on the processing

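No collagen probe passed an adjusted p of 0.05 in any setting run. Over all kept probes the count called was 1, that of Ucp1. Treating the 6 arrays as separate samples gave 54, adding the RNA sample as random block 13, and the replicate block with 6 separate arrays 15. An offset of 50 gave 9, no background correction 8, an intensity trend 10, the deposited log2 values 7 and median centring 3. The count was 3 at an adjusted p under 0.10 and 0 for probes detected on all 6 arrays. That last setting called 0 because Ucp1 was not detected on all arrays. Leaving out 1 array at a time gave 1 to 8. The replicate block with arrays 1 and 2 averaged called 1. Deviations of same-numbered arrays from their group means had correlations of 0, 0.023 and 0.062, so the numbers were not taken as pairs.

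Leaving out wild-type array 3 gave a fibrillar median of -0.04 in place of 0.29 and a basement membrane median of -0.50 in place of -0.05. Over the settings that leave out 1 array, the medians ran from -0.04 to 0.41 for fibrillar, -0.50 to -0.04 for basement membrane and 0.00 to 0.21 for other collagens. Of 302 values of single collagen genes under other settings, 280 kept their sign. Without wild-type array 3 the sign turned for Col3a1 (-0.04), Col5a1 (-0.03), Col5a2 (-0.23), Col16a1 (-0.50) and Col15a1 (-0.09). Without RORalpha1delDE array 3 it turned for Col15a1 (-0.12), Col16a1 (-0.03), Col6a2 (-0.04) and Col28a1 (-0.00), and without RORalpha1delDE array 2 for Col1a1 (0.04). Without array 1 of either group it turned for Col15a1 (-0.03 each) and Col28a1 (-0.04 each). With 6 separate arrays, with and without the replicate block, Col15a1 was at -0.05 and Col16a1 at -0.15. With median centring Col15a1 was at -0.04 and Col16a1 at -0.02, and Col16a1 was at -0.01 with the random block and with the deposited log2 values. Over the settings without 1 array the differences ran from -0.12 to 0.14 for Col15a1, -0.34 to 0.04 for Col1a1, -0.04 to 0.65 for Col3a1, -0.03 to 0.32 for Col5a1, -0.23 to 0.41 for Col5a2, -0.50 to 0.16 for Col16a1, -0.04 to 0.28 for Col28a1 and -0.04 to 0.13 for Col6a2. Over all settings, Col1a2 ran from 0.09 to 0.81, Col24a1 from 0.14 to 0.60, Col25a1 from 0.06 to 0.59, Col6a1 from 0.08 to 0.34, Col4a1 from -0.56 to -0.07, Col4a2 from -0.50 to -0.14, Col4a5 from -0.56 to -0.00, Col18a1 from -0.30 to -0.00 and Col8a1 from -0.51 to -0.02. The cause was not tested. Differences of Col1a2, Col5a2, Col25a1 and Col28a1 lie near background, where not every array detected the probe. Col6a2 was detected on all 6 arrays but was also low in signal, at 5.91 to 6.27.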
